A study of Mus musculus with 111 samples.

Results

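Small RNA of mouse liver was compared between a low-protein diet and its control diet. The comparison holds 9 of the 111 libraries of the series, chosen by their column names in the count table: 5 libraries of low-protein liver and 4 of control liver. The low-protein diet had 10% protein with sucrose in place of the missing mass, and the control diet had 18% protein, each eaten for 6 months. Libraries were made from total RNA treated with polynucleotide kinase by OTTR-seq, a method whose reverse transcriptase attaches both adapters as it copies an RNA. The labels name neither strain nor age. They do not state that each library is a separate animal, so a p-value covers only the spread among the libraries, which may be technical in part. Livers on a high-fat control diet (7.2% of calories from fat, 4 libraries), livers on a high-fat diet (60% of calories from fat, 4 libraries), and hearts on the low-protein and control diets (5 libraries each) also enter. The liver libraries of all 4 diets were fitted together and share 1 estimate of the spread, and the other diets and heart are compared where they are named. The sources used here do not give the protein content of the high-fat control diet.

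Transfer RNAs carry amino acids to the ribosome and pair with messenger RNA through their anticodon. Cells make cytosolic tRNAs from nuclear genes, while mitochondria transcribe their own small set from both strands of the circular mitochondrial genome, as long transcripts in which tRNAs punctuate the messenger and ribosomal RNAs. The liver is rich in mitochondria, takes up amino acids that arrive from the gut and secretes most plasma proteins. Small nucleolar RNAs (snoRNAs), which guide the chemical modification of ribosomal RNA, are mostly cut from introns of host genes.

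The mature sequences of 6 mitochondrial tRNAs follow, 5′ to 3′ with the anticodon in capitals, because the results on this class turn on them. They come from the GENCODE M21 transcripts of GRCm38. Methionine and alanine tRNAs rose, tryptophan tRNA fell, tyrosine and threonine tRNAs lost share within the class, and valine tRNA had the highest mean RPM of all features in each diet. The positions are chrM:3845-3913 for mt-tRNA-Met-CAT-1, chrM:4950-5016 for mt-tRNA-Trp-TCA-1, chrM:15289-15355 for mt-tRNA-Thr-TGT-1 and chrM:1025-1093 for mt-tRNA-Val-TAC-1, all on the plus strand, and chrM:5018-5086 for mt-tRNA-Ala-TGC-1 and chrM:5260-5326 for mt-tRNA-Tyr-GTA-1 on the minus strand.
mt-tRNA-Met-CAT-1: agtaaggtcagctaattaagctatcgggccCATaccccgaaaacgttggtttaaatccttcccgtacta
mt-tRNA-Ala-TGC-1: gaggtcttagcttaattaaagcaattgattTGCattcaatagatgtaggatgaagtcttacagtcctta
mt-tRNA-Trp-TCA-1: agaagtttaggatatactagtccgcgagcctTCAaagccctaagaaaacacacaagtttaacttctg
mt-tRNA-Tyr-GTA-1: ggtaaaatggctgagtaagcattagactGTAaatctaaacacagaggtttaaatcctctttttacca
mt-tRNA-Thr-TGT-1: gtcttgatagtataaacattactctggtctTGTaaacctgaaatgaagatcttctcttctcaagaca
mt-tRNA-Val-TAC-1: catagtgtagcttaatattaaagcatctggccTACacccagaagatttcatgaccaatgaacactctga

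The deposited whole-number counts gave 25024, 98331, 157380, 487627 and 340288 reads for low-protein livers 1 to 5, against 77047, 289742, 299081 and 809087 reads for control livers 1 to 4. These are summed over the 1042 features left after entries that listed the same reads were dropped. Overlapping entries whose counts did not match were kept, such as Gm47295 and Rn7s1, so a read may still count more than once. At these depths 3 reads correspond to between 6.15 and 119.9 RPM (reads per 1000000 reads of the library over the kept features) in low-protein livers and to between 3.71 and 38.9 RPM in control livers. Counts of reads are not counts of molecules, since no molecular identifier is described, so counting intervals cover counting error only. The column names carry a number after an S, which runs from 48 to 52 for low-protein liver and from 1 to 4 for control liver. The labels do not say what it marks, and whatever it marks cannot be told apart from diet. None of 27 microRNA hairpins listed as markers of hepatocytes, blood cells, vessels, muscle or bile duct is among the entries used, so the labelled tissue and its cell makeup were not checked against markers. The 276 piRNA precursors, which mark germ cells, held 332 reads in all low-protein livers and 129 in all control livers.

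Cytosolic tRNA took a much smaller share of reads on the low-protein diet, and mitochondrial tRNA a larger one. Cytosolic tRNA made up 26.7, 18.0, 12.3, 30.6 and 21.96% of reads in the 5 low-protein livers, against 50.9, 70.9, 61.4 and 69.0% in the 4 control livers. The means were 21.9% ± 7.16 (SD, n = 5) in low-protein livers and 63.02% ± 9.09 (SD, n = 4) in control livers. Every low-protein library lay below every control library. Mitochondrial tRNA made up 52.5, 71.6, 78.0, 63.5 and 61.9% of reads in low-protein livers, against 27.8, 21.7, 28.6 and 27.8% in control livers, with means of 65.5% ± 9.76 (SD, n = 5) and 26.5% ± 3.22 (SD, n = 4), and again without overlap. The two-sided exact permutation test gave p = 0.00794 for each of these classes, which is the smallest that 5 against 4 libraries allow, and 0.0357 after Benjamini-Hochberg adjustment over 9 classes. The ratio of cytosolic to mitochondrial tRNA reads was 0.351 ± 0.149 in low-protein livers (SD, n = 5) and 2.43 ± 0.620 in control livers (SD, n = 4; exact permutation test, two-sided, p = 0.00794). Shares are of 1 total, so a fall of one class and a rise of another cannot be told apart from these values, nor can fewer cells of a type from less RNA per cell.

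The other classes were smaller and their groups overlapped. Small nuclear RNA (snRNA), the RNA of the spliceosome, made up 2.27, 1.43, 1.33, 0.833 and 1.35% of reads in low-protein livers, against 1.02, 0.390, 0.345 and 0.220% in control livers. Its mean was 1.44% ± 0.518 in low-protein livers (n = 5) and 0.495% ± 0.361 in control livers (n = 4; exact permutation test, p = 0.0238 and 0.0714 after adjustment). Shares of snoRNA and of the related scaRNA, which guides modification of snRNA, were 4.96% ± 2.70 in low-protein livers (n = 5) and 4.72% ± 2.91 in control livers (n = 4; exact permutation test, adjusted p = 0.992). The remaining classes, namely microRNA hairpins, mitochondrial and other ribosomal RNA, piRNA precursors and other RNA, had adjusted p-values of 0.857 or 0.992 in the same exact test. Of the hairpin reads, most belong to Gm47295, which the annotation calls a microRNA but which overlaps Rn7s1, a gene for signal recognition particle RNA.

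**Figure D1:**
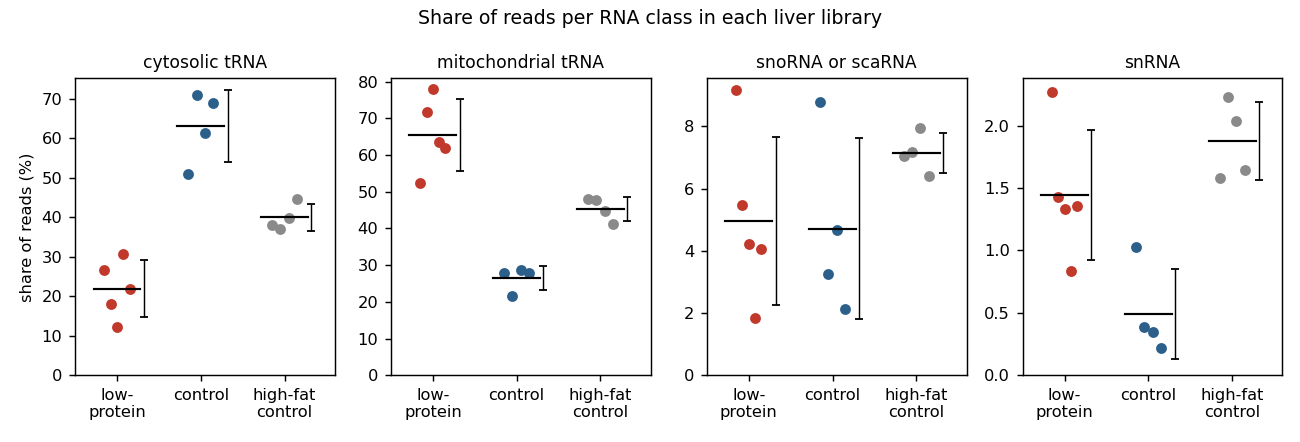
Share of reads (%) in 4 RNA classes, with 1 point per liver library, a line at the group mean and a bar for its SD, for low-protein (n = 5), control (n = 4) and high-fat control livers (n = 4). Low-protein livers lie below control livers for cytosolic tRNA (21.9 and 63.02% on average) and above them for mitochondrial tRNA (65.5 and 26.5%), with high-fat control livers between.

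The second control diet of liver bears on every result that follows. In high-fat control livers, cytosolic tRNA made up 38.1, 37.1, 39.9 and 44.7% of reads and mitochondrial tRNA 48.1, 47.7, 44.7 and 41.1%. Low-protein livers did not overlap them in either class (two-sided exact permutation test, n = 5 against 4, p = 0.0159 and adjusted p = 0.0714 for each). Per feature, 0 of 205 (0%) were higher and 0 of 205 (0%) lower in low-protein than in high-fat control livers by edgeR's quasi-likelihood test at an adjusted p under 0.05. At an unadjusted p under 0.05 there were 12 in both directions, and DESeq2 also called 0. In the same fit, 12 features (5.85%) were higher and 41 (20.0%) lower in high-fat control than in control livers, so the 2 control diets differed from each other. The high-fat control libraries were shallow, with 52429 reads in all 4, and their S numbers run from 44 to 47, next to those of the low-protein livers. Of the 70 cytosolic tRNAs tested, 39 were lower in high-fat control than in control livers, with a median difference of -2.54 on the log2 scale, and the median between low-protein and high-fat control livers was 0.18. The first of these comparisons and that of low-protein with control livers share the control libraries. Which part of the difference between low-protein and control livers belongs to the diet was not tested and cannot be read from this design alone.

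Of 205 features with enough reads to test, 20 (9.76%) were higher and 53 (25.9%) lower in low-protein than in control livers (edgeR quasi-likelihood test, Benjamini-Hochberg adjusted p under 0.05). The median log2 fold change over all of them was 0.13. It moved to -0.04 with relative log expression factors and to -0.11 with total counts as the scale, and the medians of cytosolic tRNAs, mitochondrial tRNAs, snoRNAs and snRNAs in this comparison kept their sign. The groups did not overlap in 10 features (4.88%) that were higher and in 50 (24.4%) that were lower.

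The loss among cytosolic tRNAs was broad. Of 213 cytosolic tRNA features, 70 had enough reads, and of these 52 fell, 0 rose and 18 were not called, and their log2 fold changes had a median of -2.43, against 0.13 over all features. The 143 features that were not tested held 0.309% of the cytosolic tRNA reads of low-protein livers and 0.672% of those of control livers. A tRNA can pass the filter through the control libraries alone, so the share called among the 70 does not describe all 213. Copies of a cytosolic tRNA are nearly identical, and no source used here says how a read that matches several was counted, so values of single copies are uncertain.

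By amino acid, all tested members fell in the families of proline (4 of 4), threonine (5 of 5), serine (7 of 7) and alanine (2 of 2). Arginine, which the liver turns into urea, lost 9 of 10, and cysteine 3 of 4. Leucine fell in 5 of 8, valine in 4 of 5, glutamine in 3 of 5, lysine in 2 of 3 and glycine in 2 of 5. Glutamate fell in 1 of 4, and aspartate in 0 of 2, with log2 fold changes of -0.75 ± 0.71 and -0.04 ± 0.69 (± SE here and below). Single tested members of the methionine, asparagine, isoleucine, histidine and initiator methionine families fell. The tRNAs of tryptophan, tyrosine and phenylalanine had too few reads for a test.

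**Figure D2:**
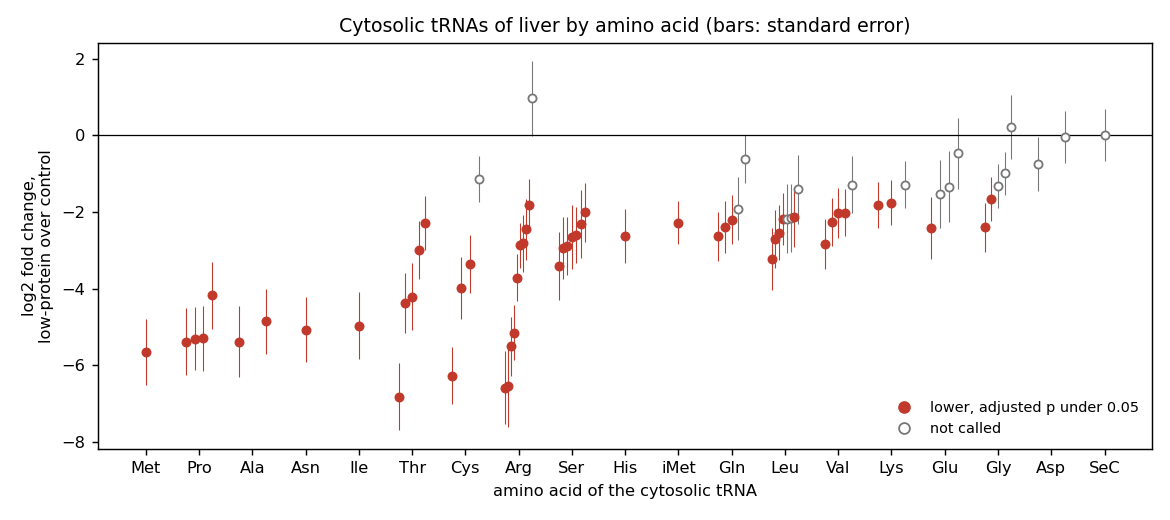
Log2 fold change, low-protein over control liver, with its standard error, for the 70 tested cytosolic tRNA features, 1 point each, ordered by the median of their amino acid; filled points passed an adjusted p under 0.05. The 4 proline members lie between -5.38 and -4.17, while both aspartate members and the selenocysteine tRNA are not called.

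Groups of tRNAs fixed by chemistry were read against the background of 52 of 70 in the class. Those whose first anticodon base is adenosine, which is edited to inosine so that the tRNA reads several codons, fell in 10 of 11, with a median change of -4.21 on the log2 scale. Those that carry the modified base queuosine at the wobble position fell in 2 of 4, with a median of -1.68. The tRNAs with a long variable arm (leucine, serine, selenocysteine) fell in 12 of 16, with a median of -2.43. Essential amino acids had 19 of 24 lower and a median of -2.28, and the other amino acids 32 of 44 and a median of -2.62. The branched-chain amino acids, a part of the essential ones, had 10 of 14 lower and a median of -2.18. Cysteine and methionine, which carry sulfur, had 4 of 5 lower and a median of -3.97.

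The 5 largest falls came from tRNAs that were close to absent in the low-protein livers. tRNA-Thr-CGT-2 had 0, 0, 0, 4.10 and 0 RPM in low-protein livers, against 311, 366, 304 and 433 RPM in control livers, which is 2 reads in all low-protein libraries and 571 in all control libraries. The rate of reads in control livers was 215 times that in low-protein livers (95% counting interval 59.1 to 1776), and its fitted log2 fold change was -6.82 ± 0.87 (adjusted p = 1.19e-05, edgeR). The arginine tRNAs tRNA-Arg-ACG-3 and tRNA-Arg-ACG-1 each had 1 read in all low-protein livers, against 344 and 355 in all control livers. The control rate was 259 times (46.1 to 10242) and 267 times (47.6 to 10569) the low-protein rate. tRNA-Cys-GCA-1 had 0, 0, 25.4, 6.15 and 11.8 RPM in low-protein livers, against 909, 969.8, 903 and 1476 RPM in control livers, a log2 fold change of -6.27 ± 0.74 (adjusted p = 5.78e-06, edgeR). tRNA-Met-CAT-2, an elongator methionine tRNA, had 79.9, 0, 0, 8.20 and 5.88 RPM in low-protein livers, against 610.0, 849, 542 and 309 RPM in control livers (-5.65 ± 0.86, adjusted p = 5.44e-05, edgeR). No library of either diet overlapped the other in these 5. None of the 5 had a read in the 52429 reads of the high-fat control livers, where 3 reads would be 57.2 RPM.

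The cytosolic tRNAs with the highest mean RPM over the 9 libraries moved less. tRNA-Asp-GTC-1, an aspartate tRNA, had 112332, 87846, 62244, 76173 and 48647 RPM in low-protein livers, against 46283, 113152, 57998 and 137126 RPM in control livers, and the groups overlapped throughout (-0.04 ± 0.69, adjusted p = 0.979, edgeR). The glutamate tRNA tRNA-Glu-CTC-1 had 13507, 7932, 5312, 57353 and 41694 RPM in low-protein livers, against 79354, 107682, 144232 and 72219.7 RPM in control livers. Here the low-protein livers fell into a low set of 3 libraries and a higher pair, replicates 4 and 5, all of them below control. Its log2 fold change was -1.52 ± 0.88 (adjusted p = 0.198, edgeR), and it was called without replicates 4 and 5, at -3.33, and with total counts as the scale, at -2.003. tRNA-Glu-TTC-1 split the same way, with 12228, 9865, 6869, 45285 and 42961 RPM in low-protein livers, against 91892, 73265, 118423 and 45722 RPM in control livers (-1.33 ± 0.93, adjusted p = 0.290, edgeR).

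The tRNAs with a single task differed from each other. tRNA-iMet-CAT-1, the initiator that starts every cytosolic protein, had 3996, 2319, 1449, 1764 and 1052 RPM in low-protein livers, against 9942, 14975, 5600.5 and 14285 RPM in control livers. It fell by 2.28 ± 0.56 on the log2 scale (adjusted p = 0.00334, edgeR) with no overlap. The selenocysteine tRNA, tRNA-SeC-TCA-1, which inserts selenium at certain stop codons, had 239.8, 122, 477, 527 and 441 RPM in low-protein livers, against 195, 832, 411 and 383 RPM in control livers (0.01 ± 0.69, adjusted p = 0.996, edgeR), with full overlap. The other initiator entries had at most 5 reads in all low-protein and 29 in all control livers and were not tested.

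Sums over the copies with the same anticodon do not depend on how reads were divided among copies, provided that each read was counted once. The counting rule is not given, and a read listed under several entries would enter the sums more than once. Of 42 such sums, 36 (85.7%) were lower in low-protein livers, and none was higher in any adjusted or scaled fit run (relative log expression factors, total counts, only the 9 libraries, the replicate block, and each library left out in turn). Arginine TCG fell most, by 6.31 ± 0.99 on the log2 scale, with 0, 10.2, 0, 6.15 and 0 RPM in low-protein livers, against 247, 497, 247 and 753 RPM in control livers. Arginine ACG fell by 6.03 ± 0.94. Proline CGG had 0, 50.8, 31.8, 146 and 115 RPM in low-protein livers, against 2648, 4231, 5657 and 3999.6 RPM in control livers, a fall by 5.29 ± 0.84 (adjusted p = 8.06e-07 for each of the 3, edgeR). The sums with the smallest changes were selenocysteine TCA (0.01 ± 0.78), aspartate GTC (-0.11 ± 0.69) and glutamate TTC (-0.97 ± 0.79), none of them called.

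Within the cytosolic tRNAs, taken as shares of their own total, the makeup also differed. Of 51 tested in this way, 4 (7.84%) gained and 23 (45.1%) lost share in low-protein livers. Aspartate tRNAs together held 40.9% ± 14.4 of cytosolic tRNA reads in low-protein livers (SD, n = 5), between 24.02 and 55.1%, against 15.5% ± 6.18 in control livers (SD, n = 4), between 10.3 and 23.1%. The lowest low-protein library was thus just above the highest control library. The feature tRNA-Asp-GTC-1 gained 1.47 ± 0.38 on the log2 scale within the class (adjusted p = 0.00135, edgeR). Glutamate tRNAs held 13.1, 14.4, 14.6, 48.99 and 56.6% in low-protein livers, against 42.2, 30.6, 53.2 and 21.3% in control livers, the same split between replicates 1 to 3 and replicates 4 and 5. tRNA-SeC-TCA-1 gained 1.41 ± 0.54, and tRNA-Arg-TCT-5, an arginine tRNA, gained 1.96 ± 0.67. The gain of tRNA-Arg-TCT-5 was carried by replicates 4 and 5, at 0.145 and 0.161% of cytosolic tRNA reads, while replicates 1 to 3 had 0, 0.0282 and 0.0154%, against 0.0128, 0.0224, 0.0125 and 0.0315% in control livers.

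The deepest losses of share were those of tRNA-Cys-GCA-1 (-5.04 ± 0.72), tRNA-Arg-CCT-2 (-4.42 ± 0.63) and tRNA-Pro-TGG-2 (-4.23 ± 0.51). Proline tRNAs together held 0, 0.107, 0.0669, 0.143 and 0.157% of cytosolic tRNA reads in low-protein livers, against 1.501, 1.74, 2.72 and 1.74% in control livers. Cysteine tRNAs held 0.561% ± 0.0989 in low-protein livers (SD, n = 5) and 3.43% ± 0.593 in control livers (SD, n = 4), each low-protein library below each control library. Arginine tRNAs held 1.59% ± 0.0968 in low-protein livers and 4.37% ± 1.12 in control livers, also without overlap.

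Mitochondrial tRNAs took a larger share of reads as a class, but few members passed the test on their own. Of 22, 21 were tested, of which 2 rose, 1 fell and 18 were not called, and over all features 9.76% were higher and 25.9% lower. Their log2 fold changes had a median of 0.82. The remaining one, mt-tRNA-Ser-GCT-1, had 12 reads in low-protein and 1 in control livers. Its second name, which was dropped, held 45 reads in the 9 libraries, against 13 under the kept name. mt-tRNA-Met-CAT-1, which serves both to start and to extend mitochondrial proteins, had 115209, 126898, 145470.0, 125079 and 129085 RPM in low-protein livers, against 43376, 22192, 21686 and 22369.7 RPM in control livers. It rose by 2.61 ± 0.76 on the log2 scale (adjusted p = 0.00935, edgeR). The low-protein libraries lay close together and far above all control libraries. mt-tRNA-Ala-TGC-1 had 33888, 42164, 44059, 42366 and 34098 RPM in low-protein livers, against 5828, 6819.9, 3404 and 10597 RPM in control livers (2.85 ± 0.78, adjusted p = 0.00671, edgeR), again without overlap. With duplicate entries left in the table this call was lost, at 2.22.

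mt-tRNA-Val-TAC-1, whose gene lies between the 2 mitochondrial ribosomal RNA genes, had 301431, 403850.0, 440907, 264866 and 277142 RPM in low-protein livers, against 151687, 104769, 200762 and 85514 RPM in control livers. The groups did not overlap, but its change of 1.602 ± 0.77 did not pass (adjusted p = 0.108, edgeR). It was called with only the 9 libraries in the fit, at 1.67, and without liver libraries under 5000 reads, at 1.61. mt-tRNA-Trp-TCA-1 went the other way, with 439.6, 407, 489, 974 and 914 RPM in low-protein livers, against 4478, 1849.9, 3243 and 4959 RPM in control livers. It fell by 2.06 ± 0.75 (adjusted p = 0.0353, edgeR), and the call was lost when low-protein replicate 1, 2, 3 or 5 or control replicate 3 or 4 was left out, and without replicate 1 of both diets, although every low-protein library lay below every control library.

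As shares of the mitochondrial tRNA reads, 1 of 21 (4.76%) gained and 7 (33.3%) lost. mt-tRNA-Met-CAT-1 gained 0.93 ± 0.30, with 21.96, 17.7, 18.6, 19.7 and 20.9% of the class in low-protein livers, against 15.6, 10.2, 7.58 and 8.06% in control livers. The largest losses were those of mt-tRNA-Trp-TCA-1 (-3.72 ± 0.52, adjusted p = 1.00e-06, edgeR), mt-tRNA-Tyr-GTA-1 (-3.02 ± 0.75, adjusted p = 0.00223) and mt-tRNA-Thr-TGT-1 (-2.42 ± 0.56, adjusted p = 0.00142). The tRNAs of proline, phenylalanine, serine (TGA) and lysine also lost share, by between 1.18 and 1.80. With the valine tRNA left out of the class total, 2 gained, with mt-tRNA-Ala-TGC-1 added at 1.32 (adjusted p = 0.0299, edgeR), and 10 lost. The count of 8 called dropped to 4 without control replicate 4, and to 5 without control replicate 2, low-protein replicate 2 or low-protein replicate 3. mt-tRNA-Val-TAC-1 held 57.5, 56.4, 56.5, 41.7 and 44.8% of the class in low-protein livers, against 54.5, 48.3, 70.1 and 30.8% in control livers, with a fitted change of 0.01 ± 0.19 and overlapping groups.

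The members that were called lie on both strands. The tryptophan and alanine genes are neighbours on opposite strands, printed above at chrM:4950-5016 and chrM:5018-5086, and their tRNAs moved in opposite directions. The alanine, asparagine, cysteine and tyrosine tRNAs, encoded next to each other on the light strand, had log2 fold changes of 2.85, 1.73, 0.50 and -1.41. Those of proline and threonine, adjacent on opposite strands, both lost share within the class. By strand, 1 of 8 light-strand tRNAs rose and 0 fell (median 0.66), and 1 of 13 tested heavy-strand tRNAs rose and 1 fell (median 1.23). The methionine tRNA has 44.9% G and C, the tryptophan tRNA 40.3%, the alanine tRNA 33.3% and the tyrosine tRNA 34.3%.

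**Figure D3:**
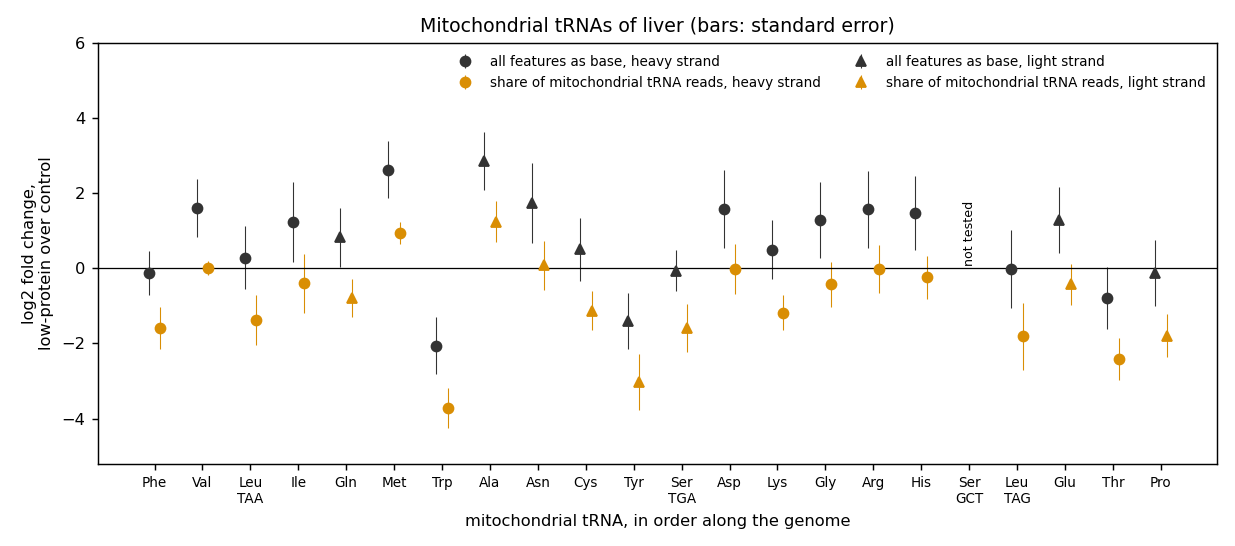
Log2 fold change, low-protein over control liver, with its standard error, for 21 mitochondrial tRNAs in genome order, scaled over all features (dark) and as shares of mitochondrial tRNA reads (orange); circles are heavy-strand and triangles light-strand tRNAs. Methionine (2.61) and alanine (2.85) stand highest and tryptophan (-2.06) lowest, and the neighbours tryptophan and alanine lie on opposite sides of 0.

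Among snoRNAs and scaRNAs, 85 of 230 were tested, of which 13 rose, 0 fell and 72 were not called, beside 9.76% higher and 25.9% lower over all features. Their median was 0.53 on the log2 scale. The class as a whole held about the same share of reads in both diets, as given above. Box C/D snoRNAs guide methylation of ribosomal RNA and are recognised by short C and D boxes. The sequences of 3 of those that rose, from the same source as the tRNAs, have these boxes in capitals: Gm22680 at chr19:8725341-8725409 on the plus strand, Gm22193 at chr8:110842383-110842458 on the minus strand and Gm22858 at chr17:71641584-71641659 on the plus strand.
Gm22680: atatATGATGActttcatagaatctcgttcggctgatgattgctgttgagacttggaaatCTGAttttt
Gm22193: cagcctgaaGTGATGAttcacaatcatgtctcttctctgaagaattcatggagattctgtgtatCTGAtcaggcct
Gm22858: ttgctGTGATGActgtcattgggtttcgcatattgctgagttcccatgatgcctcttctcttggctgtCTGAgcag
The boxes were searched on the RNA strand as ATGATGA or GTGATGA within the first 20 bases and CTGA within the last 15. Both were found in 7 of the 13 that rose (53.9%), in 52 of the 85 tested (61.2%) and in 82 of all 230 (35.7%).

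Gm22680 lies in Snhg1, a non-coding host gene of several snoRNAs. It had 1119, 976, 483, 164 and 285 RPM in low-protein livers, against 38.9, 41.4, 20.1 and 64.3 RPM in control livers, and rose by 3.82 ± 0.66 on the log2 scale (adjusted p = 8.08e-05, edgeR) with no overlap. Gm24452, a snoRNA of the same host gene and 1 of the 3 most abundant of the class, had 4116, 3366, 2160.4, 843 and 1622 RPM in low-protein livers, against 3907, 1032, 1876 and 1267 RPM in control livers (0.49 ± 0.68, adjusted p = 0.653, edgeR). Snhg1 hosts further snoRNAs, and the difference between these 2 was not tested. Gm22193, in an intron-bearing splicing factor gene, Sf3b3, had 839, 1210.2, 801, 236 and 220.4 RPM in low-protein livers, against 64.9, 93.2, 23.4 and 76.6 RPM in control livers (3.46 ± 0.66, adjusted p = 0.000254, edgeR). In both, low-protein replicates 4 and 5 were the lowest of their diet and still above every control library.

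Gm26457, annotated at 2 loci, rose by 2.54 ± 0.57 (1147 ± 714 RPM in low-protein livers, SD, n = 5, and 209 ± 58.2 RPM in control livers, SD, n = 4; adjusted p = 0.00154, edgeR). Snora28, an H/ACA snoRNA (a kind that guides pseudouridine formation) in the translation factor gene Eif5, rose by 2.45 ± 0.62 (adjusted p = 0.00432, edgeR), on 73 reads in low-protein and 28 in control livers, a call lost with no filter, at 2.10. Gm22858, in Wdr43, a gene of ribosome assembly, rose by 2.42 ± 0.62 (adjusted p = 0.00455, edgeR), with 319.7, 254, 209.7, 51.3 and 209 RPM in low-protein livers, against 38.9, 62.1, 26.7 and 32.1 RPM in control livers, where 1 low-protein library fell among the control libraries. The other 8 had log2 fold changes between 1.52 and 2.41. They include Rnu3b1, a copy of U3, which is needed to cut the precursor of ribosomal RNA, and snoRNAs in the genes Rpl4 and Rpl17, which encode ribosomal proteins. Of the 13, 11 lie within another gene on the same strand, as do 78 of the 85 tested.

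The 2 most abundant snoRNAs were not called. Snord80 had 9831 ± 5641 RPM in low-protein livers (SD, n = 5) and 10863 ± 9986 RPM in control livers (SD, n = 4; 0.14 ± 0.71, adjusted p = 0.932, edgeR). Snord104 had 4915, 1597, 1499.6, 863 and 2680.1 RPM in low-protein livers, against 8722, 4159, 7008 and 3082 RPM in control livers, and low-protein replicate 1 stood above control replicates 2 and 4 (-1.22 ± 0.69, adjusted p = 0.187, edgeR). The fall of Snord104 was called by DESeq2, at -1.39, and with duplicate entries kept, at -1.51. Of snoRNAs named as C/D (Snord), 3 of 46 tested rose, with a median of 0.28, and of those named as H/ACA (Snora), 1 of 3, with a median of 1.42. Beside these stand 13 of 85 in the whole class and 9.76% over all features. A difference between the kinds was not tested.

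**Figure D4:**
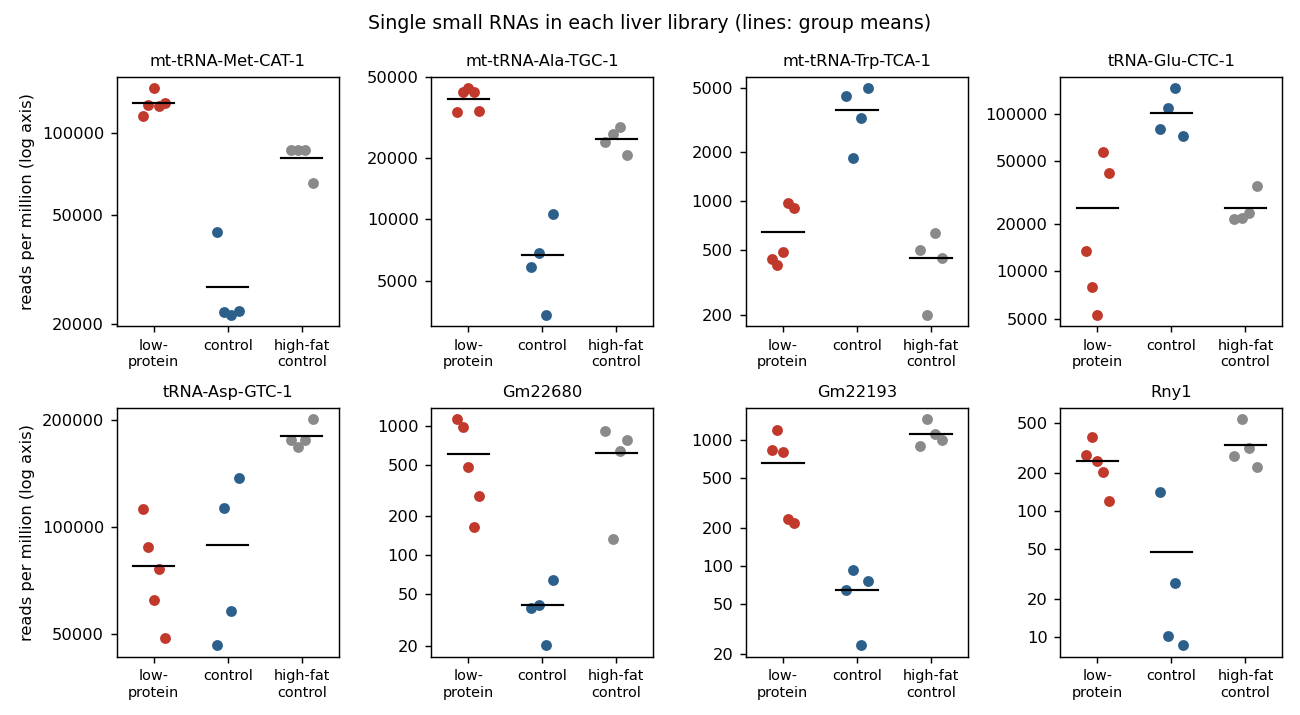
RPM on a log axis for 8 small RNAs, with 1 point per liver library and a line at the group mean, for low-protein (n = 5), control (n = 4) and high-fat control livers (n = 4). Low-protein and control libraries do not overlap in mt-tRNA-Met-CAT-1, mt-tRNA-Ala-TGC-1, mt-tRNA-Trp-TCA-1, tRNA-Glu-CTC-1, Gm22680 and Gm22193, and high-fat control libraries lie with the low-protein ones in Gm22680, Gm22193 and Rny1.

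Beyond tRNAs and snoRNAs, 5 features rose and 0 fell, beside 9.76% higher and 25.9% lower over all features. Tested here were 7 snRNAs, 9 microRNA hairpins, 2 mitochondrial and 2 other ribosomal RNA features, and 9 other RNAs. Of the 5, Gm23971 and Gm23472 are nearly identical entries for the same RNA, U2. Rny1, 1 of the 2 Y RNAs, which bind the Ro protein and take part in RNA surveillance, is at chr6:47788069-47788180 on the minus strand and rose most. Its sequence is shown, with no part marked, because it has the largest rise outside the tRNAs and snoRNAs.
Rny1: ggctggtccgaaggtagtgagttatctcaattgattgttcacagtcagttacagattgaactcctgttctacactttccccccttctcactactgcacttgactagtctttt
It had 279.7, 386, 248, 203 and 120.5 RPM in low-protein livers, against 143, 10.4, 26.7 and 8.65 RPM in control livers (3.13 ± 0.74, adjusted p = 0.00246, edgeR), on 224 and 29 reads. Control replicate 1, the shallowest of its diet, stood above the lowest low-protein library. Rny3, the other Y RNA, had 118 ± 51.4 RPM in low-protein livers (SD, n = 5) and 47.9 ± 37.5 RPM in control livers (SD, n = 4; 1.66 ± 0.79, adjusted p = 0.107, edgeR), and was called with only the 9 libraries in the fit, at 1.82.

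A pair of entries for U2, the spliceosomal RNA that pairs with the branch point of introns, also rose. Gm23971, which lists the same reads as Rnu2-10, had 10909.5, 6661, 5426, 4229 and 6494 RPM in low-protein livers, against 4322, 1501, 1311 and 954 RPM in control livers (2.07 ± 0.62, adjusted p = 0.0124, edgeR). Only the lowest low-protein library and control replicate 1 overlapped, and the call was lost with no filter on low counts, at 1.81. Gm23472 differs from it at 1 of 191 positions, so reads of the 2 are hardly separable, and it rose by 1.98 ± 0.63 (adjusted p = 0.0163, edgeR), a call lost without control replicate 2, at 1.93, with total counts as the scale, at 1.65, and with no filter, at 1.72. Of the 7 snRNA features tested, 2 rose (9.76% over all features), with a median of 1.52.

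Vaultrc5, the RNA of the vault particle, had 160, 71.2, 12.7, 26.7 and 264 RPM in low-protein livers, against 51.9, 6.90, 23.4 and 13.6 RPM in control livers (2.47 ± 0.84, adjusted p = 0.0228, edgeR). Its groups overlapped widely, and the call was lost without control replicate 2 or 4, without low-protein replicates 4 and 5, and with duplicate entries kept. Mir677, a microRNA hairpin that shares its reads with Gm50449, had 119.9, 122, 69.9, 105 and 144 RPM in low-protein livers, against 64.9, 37.96, 16.7 and 30.9 RPM in control livers (1.97 ± 0.62, adjusted p = 0.0159, edgeR), a call lost without control replicate 3, with total counts as the scale, with no filter and with duplicate entries kept, at 1.81, 1.64, 1.67 and 1.501 in that order.

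The other housekeeping RNAs were not called. Rn7s1, the RNA of the particle that brings secreted proteins to the endoplasmic reticulum, had 35406, 9041, 11240.3, 6534 and 32828 RPM in low-protein livers, against 40702, 8959.7, 14524 and 1435 RPM in control livers (0.51 ± 0.94, adjusted p = 0.764, edgeR). Gm47295, which overlaps it, changed by 1.01 ± 0.92 and Rn7s6, another copy, by -0.13 ± 0.92. Gm25018, which stands for the 5S ribosomal RNA genes, had 8958 ± 3006 RPM in low-protein livers (SD, n = 5) and 8872 ± 5228 RPM in control livers (SD, n = 4; 0.32 ± 0.63, adjusted p = 0.771, edgeR). Rn7sk, which holds back the elongation factor P-TEFb, changed by 1.40 ± 0.64 (adjusted p = 0.0969, edgeR) and was called by DESeq2, with only the 9 libraries, with duplicate entries kept, and without low-protein replicate 2 or 4. Rmrp, the RNA of RNase MRP, changed by 0.99 ± 0.93. Rpph1, the RNA of RNase P, had 15 reads in low-protein and 12 in control livers and was not tested.

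For several of the features that differed, high-fat control livers lay with the low-protein livers. Gm22193 had 903, 1465, 1115 and 1001 RPM in high-fat control livers, and low-protein livers differed from these by -0.07 ± 0.60 on the log2 scale. Rny1 had 271, 533, 318 and 222 RPM there, and low-protein livers differed from them by 0.32 ± 0.72. For mt-tRNA-Met-CAT-1, with 86610, 86390, 86640 and 65500 RPM in high-fat control livers, the difference of low-protein livers was 1.503 ± 0.72, and for mt-tRNA-Ala-TGC-1 it was 1.53 ± 0.74 (adjusted p = 0.776 for both, edgeR). High-fat control libraries thus lay between the other 2 diets in the shares of both tRNA classes and within the low-protein range or above it in Gm22193.

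Heart was set against liver in a fit of 19 libraries with an interaction term, which tests whether the low-protein effect differs. Of 256 features, 23 (8.98%) had a higher effect in liver and 43 (16.8%) a lower one. That split was 38 and 34 with relative log expression factors and 23 and 66 with total counts. The S numbers run from 35 to 39 for low-protein and from 5 to 9 for control hearts, so in heart too what they mark cannot be told apart from diet. In heart itself, 73 features (28.5%) rose and 95 (37.1%) fell. Cytosolic tRNAs fell in heart in 75 of 96, with a median of -3.15, against a median of -2.79 for the same 96 in liver. Their median difference, liver minus heart, was -0.09. It was 0.45 with relative log expression factors and -0.49 with total counts, so its sign depends on the scale. The effect was higher in liver for 5 and lower for 9.

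Mitochondrial tRNAs differed between the organs. In heart, 13 of 21 fell and 1 rose, with a median of -2.07, against a median of 0.44 in liver in the same fit. The effect was higher in liver for 9 of 21 and lower for 0, with a median difference of 1.93, and with the other scalings for 13 and 11 of 21 and medians of 2.69 and 2.01. The 9 were the tRNAs of alanine, arginine, aspartate, cysteine, glycine, histidine, leucine (TAG), lysine and threonine. The lysine tRNA, mt-tRNA-Lys-TTT-1, fell by 3.63 ± 0.66 in heart and differed by 3.77 ± 0.90 between liver and heart (adjusted p = 0.00197, edgeR). The effect on mt-tRNA-Met-CAT-1 was 1.28 ± 0.56 in heart, and its difference of 1.09 ± 0.80 was not called (adjusted p = 0.313, edgeR). mt-tRNA-Trp-TCA-1 fell by 2.72 ± 0.66 in heart, with a difference of 0.34 ± 0.90 (adjusted p = 0.799, edgeR).

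Among other classes, microRNA hairpins had a lower effect in liver for 10 of 11 (median difference -4.50) and snRNAs for 5 of 12 (-2.09). The hairpin entries are not all separate microRNAs. Gm47295 (-3.99) overlaps Rn7s1 (-4.48), and the hairpin entries Gm24187 and Gm24270 had equal RPM in each high-fat control liver. The count of 10 may thus repeat the same reads. Of the 5 snoRNAs with the largest rise in liver, 2 fell in heart. Gm22680 had 5.66, 5.33, 0, 46.5 and 31.9 RPM in low-protein hearts, against 43.6, 63.4, 65.4, 61.2 and 49.7 RPM in control hearts. It fell there by 1.66 ± 0.59, and the difference between the organs was 5.03 ± 0.84 (adjusted p = 1.63e-05, edgeR). Gm22193 fell in heart by 1.71 ± 0.56, and its difference was 4.78 ± 0.80 (adjusted p = 1.79e-05, edgeR). Gm26457 and Gm22858 had effects of 0.13 ± 0.49 and 0.35 ± 0.54 in heart, neither called, and Snora28 rose there by 2.54 ± 0.91 (adjusted p = 0.0144, edgeR). The glutamate tRNAs tRNA-Glu-CTC-1 and tRNA-Glu-TTC-1 had effects of 0.88 ± 0.69 and 1.11 ± 0.64 in heart, and lower effects in liver by 2.62 each. Low-protein heart libraries were themselves spread, with cytosolic tRNA shares between 5.35 and 52.2% of reads, against 21.2 to 23.9% in control hearts.

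**Figure D5:**
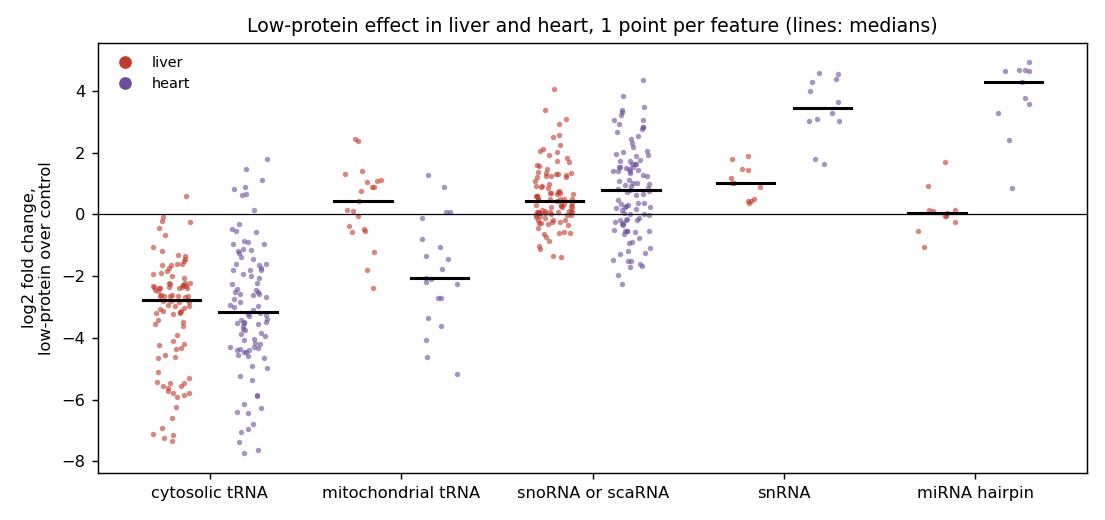
Log2 fold change, low-protein over control, of each feature in liver (red) and heart (purple) from the fit of 19 libraries, in 5 RNA classes, with a line at each median. Medians of cytosolic tRNAs are -2.79 in liver and -3.15 in heart, a difference whose sign depends on the scale, and those of mitochondrial tRNAs are 0.44 in liver and -2.07 in heart.

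The low-protein effect in liver was last set against the high-fat effect, the 2 contrasts sharing no library. Against the high-fat control diet, 5 of 205 features (2.44%) rose and 1 (0.488%) fell on the high-fat diet, with 53 at an unadjusted p under 0.05. With relative log expression factors 0 rose and 0 fell, and with total counts 0 rose and 2 fell. The low-protein effect was higher than the high-fat effect for 11 features (5.37%) and lower for 45 (22%), and with total counts as the scale for 28 and 30. Of the 70 cytosolic tRNAs, 38 had a lower low-protein effect, with a median difference of -3.36, and none a higher one, with medians of -3.44 and -2.33 in the other scalings. Many of the 38 had few reads in the 4 high-fat control livers together. tRNA-Pro-TGG-1 and tRNA-Leu-CAG-1 had 0, tRNA-Arg-CCT-2 had 2 and tRNA-Pro-AGG-1 had 4, while tRNA-Arg-CCT-4 had 106. For the first of these the high-fat effect was 6.65 ± 2.80. The count and median thus rest in part on high-fat effects with almost no baseline. The mitochondrial tRNAs had a median difference of -0.89, which was 0.15 with total counts. Of 85 snoRNAs and scaRNAs, 10 had a higher low-protein effect, Gm22193 (5.60 ± 0.96) and Gm22680 (4.81 ± 0.95) among them, and 3 a lower one, counts that were 22 and 0 with total counts.

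High-fat replicates 3 and 4 stood apart from replicates 1 and 2. They had 15.7 and 11.6% mitochondrial tRNA and 18.1 and 31.3% microRNA hairpin reads, against 65.5 and 71.3% and 1.02 and 0.739% in replicates 1 and 2, and replicate 3 had 827 reads in all. Nearly all hairpin reads of replicates 3 and 4 were listed under Gm47295, which overlaps Rn7s1, with 176542 and 280156 RPM. Rn7s1 itself had 180169 and 300922 RPM there, so this is no rise of microRNAs at large. Without replicates 3 and 4, 15 features had a higher and 73 a lower low-protein effect. Without control replicate 2, the numbers were 7 and 30.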

How the data were processed

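The authors deposited a table of whole-number read counts per small RNA with no normalization. The submitters' processing notes name cutadapt, DESeq2 and the mouse build mm10, with no version or role. The aligner and the counting rule were not given in the sources used here, nor was the meaning of the code gt65 in the column names.

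Of 1268 entries, 22 second names of mitochondrial tRNAs and 55 5S copies were dropped by name. Another 149 that listed the same reads (differing by under 5%, entries of at least 50 reads) were dropped by their counts. This left 1042 features and 51.1% of summed counts. Not every second name matched: that of mt-tRNA-Arg-TCG-1 held 2465 reads in the 9 libraries, against 46146 under the kept name. Classes and coordinates came from GENCODE M21 (GRCm38), which matched 507 of 512 gene names. The 17 liver libraries were fitted together by diet in edgeR 4.0.16 (R 4.3.3) with TMM factors, filterByExpr at a minimum count of 10 and the robust quasi-likelihood test. Calls took a Benjamini-Hochberg adjusted p under 0.05, and standard errors came from the F statistic. Fits within a tRNA class used that class's reads as library size. Class shares took the exact permutation test over libraries. DESeq2 1.42.0, other scalings, no filter, fewer libraries and all entries were alternatives. In data simulated for low-protein against control liver over 205 features, 10 of 10 changes of log2 4 were called, 7 of 10 of log2 3, 4 of 10 of log2 2, 0 of 10 of log2 1 and 2 of 165 unchanged features. The simulated diets shared 1 mean profile, changes were balanced up and down at random, and features varied independently. It held no shift of a whole class and no libraries that move together, so these rates need not hold for the real comparison.

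Features were named by rule: the 5 largest called changes per class and direction, the 3 most abundant per class, the members of short lists of housekeeping RNAs, and 3 each way of anticodon sums and class shares. Members, lists and this rule were chosen with earlier results of these data known. No 2 libraries of a diet agreed within sampling noise, so each counted once.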

Additional observations from a re-analysis of the deposited data

Results flagged for a closer look

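Among 86 groups of libraries examined (a class or named feature within 1 diet), 13 had a library far from the others. Chance gives about 1 in 20. The mitochondrial tRNA share was 21.68% in control replicate 2, against 27.76 to 28.62% in the other control livers. The lowest control library held 0.1688% mitochondrial ribosomal RNA, and the highest low-protein library 0.06906% piRNA precursors. In low-protein livers the highest library stood apart for tRNA-Thr-CGT-2 (4.101 RPM), tRNA-Arg-ACG-3 (2.051 RPM), tRNA-Arg-ACG-1 (10.17 RPM), tRNA-Met-CAT-2 (79.92 RPM) and Rmrp (232.2 RPM), the first 3 of them on 1 or 2 reads with the other libraries at 0, where any read stands apart. The value of tRNA-Met-CAT-2 is that of replicate 1, the shallowest of its diet, and lies under the 119.9 RPM that 3 reads make there. In control livers the highest library stood apart for tRNA-Cys-GCA-1 (1476 RPM), Rny1 (142.8 RPM), Gm23971 (4322 RPM), Gm23472 (4231 RPM) and mt-tRNA-Met-CAT-1 (43380 RPM), the last 4 all in replicate 1, the shallowest of its diet.

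The low-protein effect of 14 named features differed between liver and heart by edgeR's interaction test. Over all 256 features the effect was higher in liver for 8.98% and lower for 16.8%. Part of the named features were chosen for a large change in these same livers. The difference contains that change, so the number called is no test of the named features as a set. The effect was lower in liver, on the log2 scale, for tRNA-Cys-GCA-1 (-4.81), tRNA-Glu-CTC-1 (-2.62), tRNA-Glu-TTC-1 (-2.62), Rn7s1 (-4.48), Gm47295 (-3.99), Gm25018 (-3.48), Snord104 (-3.13), Rn7s6 (-3.74), Rmrp (-3.51) and Rn7sk (-2.33). It was higher in liver for mt-tRNA-Ala-TGC-1 (3.26), Gm22680 (5.03), Gm22193 (4.78) and Gm26457 (2.10).

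The low-protein effect differed from the high-fat effect in liver for 13 named features by the same kind of test. Over all 205 features it was higher for 5.37% and lower for 22%. The same limit from the choice of named features holds here. It was lower for tRNA-Thr-CGT-2 (-11.88), tRNA-Arg-ACG-3 (-10.28), tRNA-Arg-ACG-1 (-12.49), tRNA-Cys-GCA-1 (-11.67) and tRNA-Met-CAT-2 (-10.00). These 5 had no read in high-fat control livers, so the fitted differences depend on edgeR's prior count and are no bound. It was also lower for mt-tRNA-Trp-TCA-1 (-4.01) and Snord104 (-3.49), and higher for Rny1 (2.97), Gm22680 (4.81), Gm22193 (5.60), Gm26457 (4.00), Snora28 (4.15) and Gm22858 (3.19).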

How the results depend on the processing

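The 73 features called between low-protein and control livers became 74 with relative log expression factors, 72 with total counts, 82 with DESeq2, 84 with all entries kept, 101 with only the 9 libraries, 88 without liver libraries under 5000 reads and 128 with no filter (25 higher, 103 lower), since more features were then tested. With the replicate number as a block there were 47 (14 higher, 33 lower), and mt-tRNA-Trp-TCA-1, Vaultrc5 and Gm23472 were among the calls lost. The block used the replicate numbers of the sample titles. Nothing in the labels pairs the libraries, and deviations of libraries with the same title number correlated at 0.31, -0.38, 0.05 and 0.46. The library names number the control livers otherwise, and by those numbers the correlations were 0.28, -0.22, -0.06 and -0.27. Leaving out 1 library at a time gave 50 to 92. Chosen after seeing the data, the fit without low-protein replicates 4 and 5 gave 77, that without the shallowest library of each diet 93, and the high-fat control diet as reference 0; the cause was not tested. Calls within cytosolic tRNAs (27) were 41 with only the 9 libraries, 94 with no filter and 21 to 33 with a library left out. Calls within mitochondrial tRNAs (8) were 4 to 9 with a library left out. Anticodon sums (36) were 28 to 39, and liver minus heart (66) was 55 to 97. Low-protein minus high-fat (56) was 37 to 70, and 88 without high-fat replicates 3 and 4, an alternative also chosen after seeing the data. No value changed sign while called. Of the recomputed values of single features and classes, 666 counted as unchanged and 24 lost the call. Another 14 gained the call or, for a class share, a lack of overlap, and 32 values of uncalled features changed sign. The median over all features was counted among the 666 in every setting, although it changed sign with relative log expression factors and with total counts. With a library left out the exact test of class shares cannot pass after adjustment, and 2 to 3 classes did not overlap. Depth limits low features: 3 reads in all low-protein livers are 2.71 RPM, and 57.2 RPM in high-fat control livers.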
